A study of Mus musculus with 12 samples.

Results

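The immediate early genes *Fos*, *Fosb*, *Jun*, *Junb*, *Atf3*, *Ier2* and *Dusp1* and the Krüppel-like factor genes *Klf2*, *Klf4* and *Klf6* were examined in tendon cells without *Scx*, the bHLH transcription factor of tendon progenitors. They are 10 of the 15671 genes in the expression table, taken by name, and all 10 were among the 12123 genes with a mean of at least 1 FPKM (fragments per kilobase of transcript, scaled to the number of fragments) over the 2 groups, called expressed genes here. They were selected on measured values, since the list was drawn up with the expression results of these embryos known. Their levels and ratios are therefore a description and carry no test.

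Expression was measured by RNA-seq in Scx-GFP+ cells sorted from E15.5 forelimbs, from 3 *Scx*-/- samples and 3 control samples. The *Scx*-/- embryos carry a null allele in which a LacZ cassette replaces the coding sequence, the control samples are littermates that the series' design text calls wild type and the methods only control (heterozygotes were sorted too), and all of these embryos come from intercrosses that carry the Scx-GFP transgene, whose Scx regulatory sequences defined the cells sorted. The cells were freed with trypsin-EDTA, pipetting and flow sorting before RNA extraction, in both groups alike. Binding was measured by ChIP-seq in whole E13.5 forelimbs of *Scx* Flag/Flag embryos, in which the Scx protein ends in a 2xFLAG tag, with 3 anti-FLAG ChIP samples and 3 input samples, each ChIP replicate being a pool of 10 pairs of forelimbs. The background is mixed, since the Flag allele was made in B6D2F1 zygotes (C57BL/6 and DBA2 parents), the null line came from C57BL/6N stock, and the strains were kept by crosses to CD-1 mice or by intercrossing. The stages differ, and the ChIP-seq tissue was not sorted.

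For RNA-seq the deposited values used here are the authors' mean FPKM of each group, with no value for single embryos. From these means no spread, interval or test of a difference can be given, and the depth is unknown. The authors' own comparison, with a log2 fold change, p-value and FDR, was deposited beside the means and was not used here. Ratios are given as log2 of *Scx*-/- over control after adding 1 FPKM to each mean, which understates differences of low genes. *Scx* itself was at 41.9 FPKM in *Scx*-/- cells and 88.6 FPKM in control cells. Where the reads of *Scx* in *Scx*-/- cells come from was not tested. *Xist* was at 24.9 FPKM in *Scx*-/- cells and 174.7 FPKM in control cells, so the sexes were mixed differently in the 2 groups. The part of sex in the values below was not tested.

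Immediate early genes are transcribed within minutes of a stimulus, without new protein synthesis, through factors such as Srf with its Tcf partners and Creb that are already bound or ready in the cell. Fos and Jun family proteins pair as the AP-1 factor, and in connective tissue such genes respond to growth factors, to stretch and to the handling of live cells. Many of their mRNAs are short-lived, and their promoters often hold cAMP response elements (CRE, a site for Creb and Atf proteins). Klf2, Klf4 and Klf6 are zinc finger factors that bind GC-rich DNA, and Klf2 is best known as a gene induced by fluid flow in endothelium.

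The sequences below show the start regions of 4 of the genes, *Fos* and *Junb* as subunits of AP-1, *Klf2* with the largest log2 ratio in size, and *Dusp1*, which has an Scx peak at its start. They were taken from RefSeq (GRCm38.p6, mm10 coordinates), are read on the strand of the gene, and begin 250 bases before the RefSeq start. Bases annotated as UTR in GENCODE were left out. Capitals mark the CRE core TGACG on either strand, the TATA box TATAAA and the MEF2 site.
*Fos*, chr12:85473640-85473889, plus strand: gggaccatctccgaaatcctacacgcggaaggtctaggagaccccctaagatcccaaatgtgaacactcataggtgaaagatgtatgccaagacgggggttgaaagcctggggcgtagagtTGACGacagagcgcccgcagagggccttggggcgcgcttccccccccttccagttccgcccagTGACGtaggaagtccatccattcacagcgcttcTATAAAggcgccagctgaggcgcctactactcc
*Junb*, chr8:84978749-84978998, minus strand: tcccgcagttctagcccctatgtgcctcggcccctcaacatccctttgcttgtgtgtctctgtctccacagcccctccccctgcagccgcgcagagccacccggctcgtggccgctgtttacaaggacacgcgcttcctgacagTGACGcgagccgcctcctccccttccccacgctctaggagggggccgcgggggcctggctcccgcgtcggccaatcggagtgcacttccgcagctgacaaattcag
*Klf2*, chr8:72318812-72319032, plus strand: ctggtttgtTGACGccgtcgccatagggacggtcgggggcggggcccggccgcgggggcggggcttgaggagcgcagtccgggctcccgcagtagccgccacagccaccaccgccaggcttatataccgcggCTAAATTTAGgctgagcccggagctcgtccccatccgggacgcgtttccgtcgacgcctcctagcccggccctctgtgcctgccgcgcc
*Dusp1*, chr17:26508520-26508722, minus strand: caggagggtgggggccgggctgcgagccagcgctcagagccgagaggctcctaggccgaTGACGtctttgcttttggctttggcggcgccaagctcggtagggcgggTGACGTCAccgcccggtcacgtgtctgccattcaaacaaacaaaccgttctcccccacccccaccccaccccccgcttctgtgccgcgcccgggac

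Of the 9 genes with a RefSeq start region of 300 bases (250 before and 50 after the start), 7 held TGACG on either strand, namely *Fos*, *Fosb*, *Junb*, *Atf3*, *Klf2*, *Klf4* and *Dusp1*. *Ier2* was not matched. The same letters were present in 20.8% of all 32851 start regions and in 31.2% of the 11948 that belong to expressed genes. *Fos* held the core at 129 and 66 bases before the start and TATAAA at 33 bases before it. *Dusp1* held the full palindrome TGACGTCA, which also counts as TGACG on both strands, at 143 bases before the start, and a further core at 191 bases. The palindrome stood in 1.79% of all start regions and in 3.1% of those of expressed genes. The MEF2 site was found at *Jun*, *Atf3* and *Klf2*, against 3.19% of all start regions and 1.71% of those of expressed genes. At *Jun* it lay 33 bases before the start. The Scx core, defined below with the peaks and not marked in the sequences above, was in 4 of the 9 regions. These were *Fos*, *Junb*, *Atf3* and *Klf4*, against 33.4% of all start regions and 26.0% of those of expressed genes. No CArG box, the site of Srf, lay in these 9 windows (1.63% of all), and no AP-1 site TGANTCA (7.81% of all), where N is any base. Bases more than 250 before the start were not searched, so Srf or AP-1 sites further upstream could not be seen. A match is a description of the letters and not evidence of a bound factor.

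Expressed genes with TGACG in the start region, the 10 genes left out, had a median log2 ratio of -0.0029, and those with the palindrome had -0.0050. For the CArG box the median was -0.02, for the MEF2 site 0.0055 and for the AP-1 site 0.01. The start regions of the 9 genes had a median GC content of 65.3%, against 61.3% over expressed genes.

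The 10 genes had a median of 4 exons and 2049 bases in the GENCODE M21 principal transcript, against 9 exons and 3075 bases over expressed genes. *Klf6*, *Fosb* and *Jun* were longer than that median over expressed genes, and *Jun*, *Junb* and *Ier2* have 1 exon (30% against 2.24% of expressed genes). In the 3′ UTR, the pentamer ATTTA of AU-rich elements, which mark short-lived mRNAs, stood at a median of 2.39 per kilobase in the 10 genes and 1.32 per kilobase over expressed genes. The nonamer TTATTTATT was found in *Fos*, at 1 place, and in *Dusp1*, at 2 places, against 7.60% of expressed genes. *Ier2* had no ATTTA and *Klf6* had 7.

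Of the 10 genes, 9 had a lower mean in *Scx*-/- cells than in control cells and *Klf6* a higher one. Over all expressed genes 50.2% were lower, and the list was chosen with this contrast known, so nothing is read from that count. The means of the 10 genes summed to 169.2 FPKM in *Scx*-/- cells and 194.7 FPKM in control cells, or 86.9% of control. Their log2 ratios ran from -0.62 to 0.06 with a median of -0.27, beside a median of -0.00036 over all expressed genes, of which the lowest 5% lay under -0.19 and the lowest 1% under -0.36. *Klf2* was the only one at least 1.5-fold lower, a size reached downward by 0.223% of expressed genes and upward by 0.132%. *Klf2*, *Junb*, *Fos* and *Fosb* were at least 20% lower after adding 1 FPKM, a size reached by 1.32% of expressed genes. With 0.1 FPKM added in place of 1, a setting chosen after seeing the data, *Atf3* and *Ier2* passed it too, which made 6 genes, beside 2.56% of expressed genes. Below, with 1 FPKM added, this size and its inverse, 25% higher, serve as the smaller of the 2 thresholds.

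**Figure D1:**
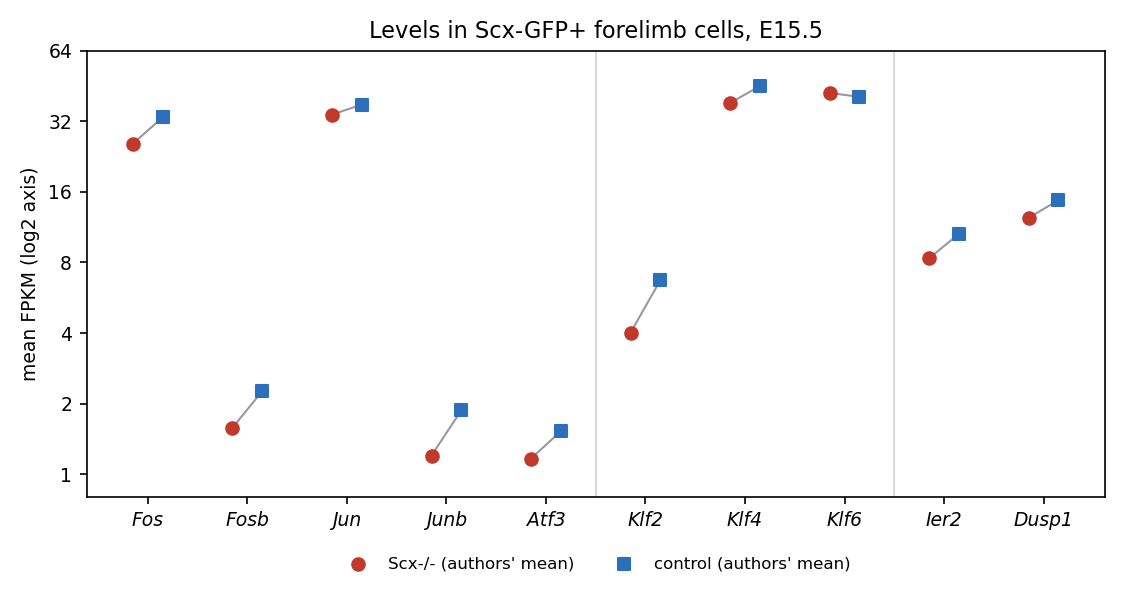
Authors' mean FPKM of each gene (log2 vertical axis) in *Scx*-/- cells (circles, left of each pair) and control cells (squares, right), from AP-1 subunits through Klf factors to *Ier2* and *Dusp1*, with no error bars because single samples are not in the table used. The circle lies below the square for 9 genes and above it for *Klf6*, at 42.3 FPKM in *Scx*-/- cells against 40.7 FPKM in control cells.

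Among the AP-1 subunits, *Fos* had the largest difference in FPKM. It encodes the inducible partner of Jun proteins and lies on chromosome 12 (plus strand, chr12:85473890-85477273). Its mean was 25.7 FPKM in *Scx*-/- cells and 33.3 FPKM in control cells, a difference of -7.61 FPKM and a log2 ratio of -0.36. At that log2 ratio or lower stood 118 of the 12123 expressed genes. *Fosb*, which encodes a related partner of Jun proteins (chr7:19302696-19310051, minus strand), was much lower in level, with 1.58 FPKM in *Scx*-/- cells and 2.26 FPKM in control cells, and its log2 ratio was -0.34.

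*Jun*, the main Jun subunit and a gene with a single exon (chr4:95049034-95052222, minus strand), was nearly as high as *Klf4* and *Klf6*. It had 34.2 FPKM in *Scx*-/- cells and 37.7 FPKM in control cells, a log2 ratio of -0.14 that 10.3% of expressed genes equalled or passed downward. *Junb*, which encodes a Jun subunit of weaker activating capacity (chr8:84976910-84978718, minus strand), had 1.20 FPKM in *Scx*-/- cells and 1.87 FPKM in control cells, or 64.2% of control. Its log2 ratio was -0.38, and with 0.1 FPKM added in place of 1 it was -0.60, past 1.5-fold, because the added 1 FPKM is nearly as large as the level itself. *Atf3*, a stress-induced bZIP factor of the Atf and Creb family (chr1:191170296-191183340, minus strand), was the lowest of the 10, with 1.17 FPKM in *Scx*-/- cells and 1.53 FPKM in control cells and a log2 ratio of -0.22.

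Among the Klf factors the 3 genes differed in level and in ratio. *Klf2* (chr8:72319033-72321656, plus strand) had 4.01 FPKM in *Scx*-/- cells and 6.73 FPKM in control cells, or 59.7% of control, a log2 ratio of -0.62 and 1.54-fold lower after adding 1 FPKM. Of all expressed genes 24 stood at that log2 ratio or lower. *Klf4*, one of the reprogramming factors and a gene of fibroblasts and epithelium (chr4:55527143-55532466, minus strand), had 38.3 FPKM in *Scx*-/- cells and 45.2 FPKM in control cells, with a log2 ratio of -0.23. *Klf6*, a broadly expressed factor induced by injury (chr13:5861482-5870394, plus strand), had 42.3 FPKM in *Scx*-/- cells and 40.7 FPKM in control cells, with a log2 ratio of 0.06. It was the only gene of the 10 with a higher mean in *Scx*-/- cells.

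*Ier2*, a short nuclear protein of the early growth factor response (chr8:84661331-84662852, minus strand), had 8.33 FPKM in *Scx*-/- cells and 10.6 FPKM in control cells, a log2 ratio of -0.31. *Dusp1*, the phosphatase that switches off p38, Jnk and Erk kinases (chr17:26505590-26508519, minus strand), had 12.4 FPKM in *Scx*-/- cells and 14.8 FPKM in control cells, a log2 ratio of -0.23. Both lay between *Klf2* and *Fos* in level.

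In FPKM, which is per length, the order in *Scx*-/- cells was *Klf6*, *Klf4*, *Jun*, *Fos*, *Dusp1*, *Ier2*, *Klf2*, *Fosb*, *Junb* and *Atf3*. The order in control cells was the same except that *Klf4* stood above *Klf6*. Whether neighbours in this order differ beyond the spread between embryos cannot be said without single samples. The genes thus fell into a group of 4 with 25.7 FPKM or more in *Scx*-/- cells, a group of 3 between 4.01 and 12.4 FPKM, and a group of 3 at 1.58 FPKM or less.

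**Figure D2:**
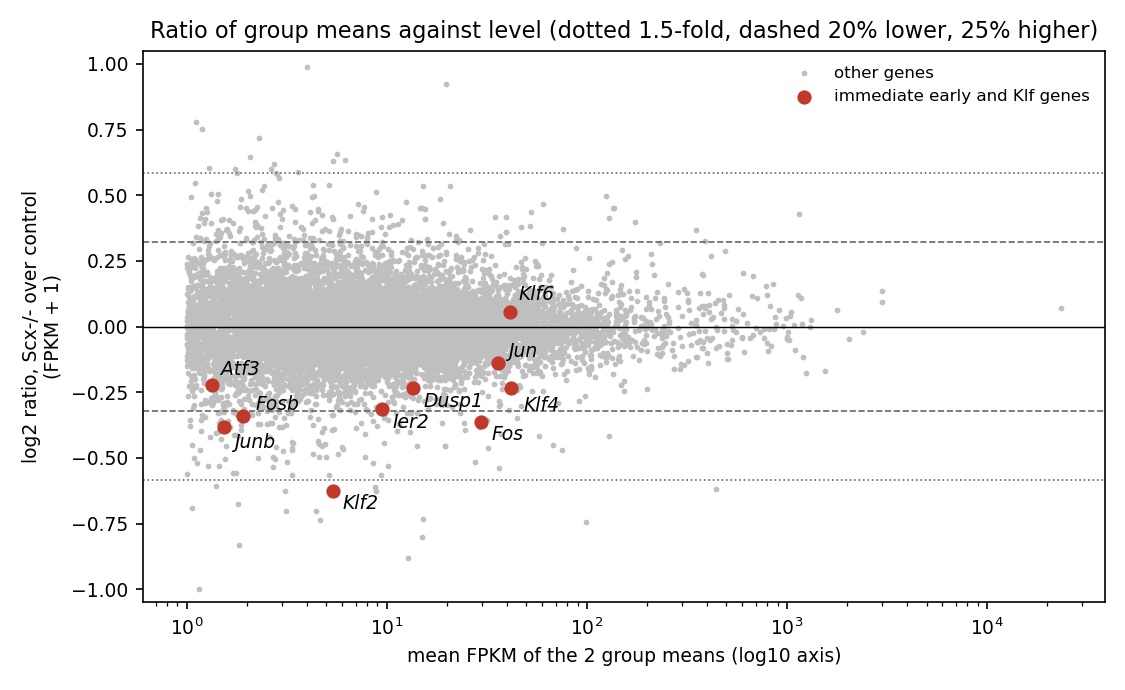
Log2 ratio of *Scx*-/- over control (FPKM + 1) against the mean FPKM of the 2 groups (log10 axis) for genes with a mean of at least 1 FPKM, the 10 genes in red with names, and lines at 1.5-fold (dotted) and at 20% lower and 25% higher (dashed). *Klf2* lies under the lower dotted line at -0.62, *Junb*, *Fos* and *Fosb* lie between the lower dashed and dotted lines, and *Klf6* lies above 0 at 0.06. 12 other genes lie beyond the vertical range drawn.

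By the distance between pairs of log2 group means, the genes nearest to *Klf2* among those with a mean of at least 5 FPKM were *Six2*, a homeobox gene of limb connective tissue, and *Pi16*, which encodes a secreted protein of fibroblasts. *Six2* had 3.96 FPKM in *Scx*-/- cells and 6.34 FPKM in control cells, and *Pi16* had 3.99 FPKM in *Scx*-/- cells and 6.03 FPKM in control cells. Nearest to *Klf6* were *Arl8b*, a lysosomal GTPase gene, with 42.5 FPKM in *Scx*-/- cells and 41.0 FPKM in control cells, and *Pdhb*, a subunit gene of pyruvate dehydrogenase, with 42.1 FPKM in *Scx*-/- cells and 41.0 FPKM in control cells. The likeness rests on 2 values a gene.

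Related genes outside the 10 were described from lists by family and role. Of 15 expressed genes for other AP-1 and small Maf subunits, 9 were lower and 6 higher in *Scx*-/- cells, with a median log2 ratio of -0.01. *Atf4*, the factor of the integrated stress response, had 66.1 FPKM in *Scx*-/- cells and 71.4 FPKM in control cells. *Atf7* had 32.6 FPKM in *Scx*-/- cells and 31.0 FPKM in control cells. *Batf*, a bZIP partner of Jun best known in lymphocytes and chosen here after its values were seen, was the only one past the smaller threshold in either direction, with 0.746 FPKM in *Scx*-/- cells and 1.5 FPKM in control cells.

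Of 33 expressed other immediate early and serum response genes, 19 were lower and 14 higher in *Scx*-/- cells, with a median log2 ratio of -0.03. *Zfp36l1*, which encodes a protein that binds AU-rich elements, had 121.3 FPKM in *Scx*-/- cells and 118.5 FPKM in control cells. *Egr1*, a zinc finger factor of the same early response and of tendon, had 96.5 FPKM in *Scx*-/- cells and 107.7 FPKM in control cells, a log2 ratio of -0.16. Past the smaller threshold lay *Cyr61* alone, a matrix protein gene induced by Srf and Yap and named after its values were seen, with 21.2 FPKM in *Scx*-/- cells and 28.2 FPKM in control cells.

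Of 15 expressed other Klf and Sp factors, 7 were lower and 8 higher in *Scx*-/- cells, with a median log2 ratio of 0.01. *Sp3* had 39.5 FPKM in *Scx*-/- cells and 38.6 FPKM in control cells, and *Klf3* had 27.7 FPKM in *Scx*-/- cells and 31.7 FPKM in control cells. *Klf14*, picked after its values were seen, was the only one past the smaller threshold, and it was higher, with 21.9 FPKM in *Scx*-/- cells and 16.4 FPKM in control cells.

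Of 14 expressed other dual specificity phosphatase genes, 7 were lower and 7 higher, with a median log2 ratio of -0.00015. The highest were *Dusp7*, with 24.4 FPKM in *Scx*-/- cells and 27.2 FPKM in control cells, and *Dusp11*, with 24.0 FPKM in *Scx*-/- cells and 24.2 FPKM in control cells. *Dusp14*, also picked after its values were seen, was the only one past the smaller threshold, with 2.48 FPKM in *Scx*-/- cells and 3.54 FPKM in control cells.

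Of 27 expressed genes for Srf, its Tcf and Mrtf partners, Creb, Mef2 and Mapk kinases, 11 were lower and 16 higher in *Scx*-/- cells, the median log2 ratio was 0.06 and none passed the smaller threshold. *Atf1* had 37.7 FPKM in *Scx*-/- cells and 34.1 FPKM in control cells. Of 15 expressed targets of Srf with Mrtf and of Yap, 11 were lower and 4 higher, with a median of -0.06, and *Cyr61* again was the only one past the smaller threshold. *Actb* had 989.3 FPKM in *Scx*-/- cells and 1022.9 FPKM in control cells, and *Actg1* had 173.3 FPKM in *Scx*-/- cells and 175.6 FPKM in control cells.

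Of 13 expressed heat shock and dissociation genes, which also respond to enzymatic release of cells, 9 were lower and 4 higher in *Scx*-/- cells, none past the smaller threshold, with a median log2 ratio of -0.01. *Hsp90ab1* had 1007.8 FPKM in *Scx*-/- cells and 1022.2 FPKM in control cells, and *Hspa5* had 521.4 FPKM in *Scx*-/- cells and 539.8 FPKM in control cells. *Hspa1a* and *Hspa1b* were under the minimum of 1 FPKM and are not in these counts. *Hspa1a* had 0.408 FPKM in *Scx*-/- cells and 0.451 FPKM in control cells, and *Hspa1b* had 0.613 and 0.576 FPKM. The part of cell handling in the levels of the 10 genes was not tested.

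**Figure D3:**
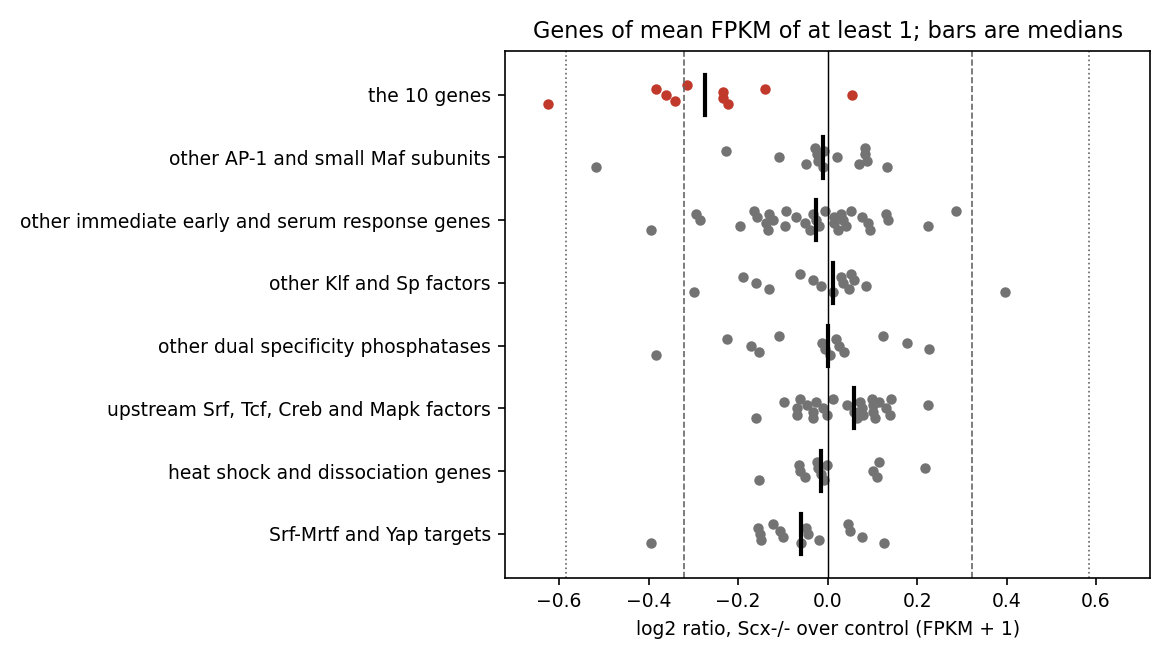
Log2 ratio of *Scx*-/- over control (FPKM + 1) of each gene with a mean of at least 1 FPKM, with the 10 genes in red at the top and 7 lists of related genes in grey under them, bars at the medians, and lines at 1.5-fold (dotted) and at 20% lower and 25% higher (dashed). The median of the 10 genes lies at -0.27 and those of the lists lie between -0.06 and 0.06.

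The sorted cells carried tendon markers, of which 10 of 12 were lower in *Scx*-/- cells, with a median log2 ratio of -0.43. Over all expressed genes 50.2% were lower. The marker list holds *Scx* itself and genes already known to be lower in this contrast, so nothing is read from its count or median. Among its other genes, *Col1a1*, *Col1a2* and *Dcn* had log2 ratios of -0.18, -0.11 and -0.04. *Bgn* and *Tnc* were higher, at 0.02 and 0.13. Fewer cells of a type and less RNA per cell cannot be told apart in such bulk samples. Markers of other cells were present in both groups. Endothelial markers, from a cell type known for high *Klf2*, summed to 33.1 FPKM in *Scx*-/- cells and 33.4 FPKM in control cells, with 4 of 7 expressed lower and none past the smaller threshold. Macrophage and leukocyte markers summed to 22.3 FPKM in *Scx*-/- cells and 19.7 FPKM in control cells. Of the 7 expressed, 6 were higher, 1 of them past the smaller threshold.

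Red cell markers summed to 240.7 FPKM in *Scx*-/- cells and 178.3 FPKM in control cells. All 5 expressed were higher, at log2 ratios between 0.22 and 0.45, and 4 were past the smaller threshold. Epidermis markers summed to 27.7 FPKM in *Scx*-/- cells and 23.1 FPKM in control cells, Schwann cell markers to 5.76 FPKM in *Scx*-/- cells and 4.90 FPKM in control cells, and mural cell markers to 57.5 FPKM in *Scx*-/- cells and 52.0 FPKM in control cells. Skeletal muscle markers summed to 483.5 FPKM in *Scx*-/- cells and 451.8 FPKM in control cells, and cartilage markers to 101.7 FPKM in *Scx*-/- cells and 124.3 FPKM in control cells. Of the 6 expressed cartilage markers 3 were lower and 3 higher, with a median log2 ratio of -0.0070. Of these, 2 were past the smaller threshold downward, a size reached by 1.32% of expressed genes, and 0 upward. The lowest log2 ratio among them was -0.45 and the highest 0.05. No marker of these lists was at 0 in both groups. The part of these cells in the levels of the 10 genes was not tested.

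Scx peaks were then placed around the genes. The authors' list holds 12097 peaks of 200 bp in mm10, called over the 3 ChIP samples against input and kept at a log2 enrichment over 2 and an FDR under 0.01, with no height for single peaks in the list. A peak was assigned to a gene if its centre fell in the basal domain of the gene, from 5 kb before to 1 kb after the start of its principal transcript, or in its extension to the next basal domain up to 1000 kb away. Of the 10 genes, 5 had a peak, against 47.0% of 11517 expressed genes with a start site. They were *Dusp1* with 3 peaks, *Ier2* with 2, *Jun* with 2, *Klf4* with 1 and *Klf6* with 6.

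*Fos*, *Fosb*, *Junb*, *Atf3* and *Klf2* had none. With 1 FPKM added, the 4 genes at least 20% lower were all in this group, whereas with 0.1 FPKM added *Ier2*, which has 2 peaks, was among the 6. The median log2 ratio was -0.36 for the 5 genes without a peak, against -0.23 for the 5 genes with a peak. The genes were chosen with their ratios known, so nothing is read from this difference. Over expressed genes the medians were -0.0036 with a peak and 0.0010 without one. The domains of the genes without a peak were shorter, with a median of 110.2 kb against 568.4 kb for those with one, beside 100 kb over expressed genes. *Junb*, in a gene-dense stretch, had a domain of 11.2 kb, whereas that of *Klf6* spanned 1681.7 kb. The split also depended on the length allowed. With extensions of at most 100 kb only *Ier2* and *Dusp1* kept a peak, at log2 ratios of -0.31 and -0.23. *Jun*, *Klf4* and *Klf6*, at -0.14, -0.23 and 0.06, then joined the genes without one.

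Few of these peaks were near a start. A peak centre within 5 kb of the start was found for 1 of the 10 genes, *Dusp1*, against 24.9% of expressed genes, and within 100 kb for 4 of the 10, against 70.8%. The nearest peak lay at a median of 119.7 kb from the start for the 10 genes and 45.7 kb over expressed genes. Around *Klf2* the nearest peak was 155934 bases downstream, at the promoter of *Cherp*, and around *Fos* it was 134737 bases upstream, in a coding exon of *Nek9*. For *Fosb* it lay 93823 bases upstream at the promoters of *Klc3* and *Ckm*, for *Junb* 31378 bases downstream in an intron of *Rtbdn*, and for *Atf3* 120398 bases downstream at the promoters of *Nsl1* and *Tatdn3*. These 5 peaks were assigned to neighbours and not to the immediate early or Klf genes.

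**Figure D4:**
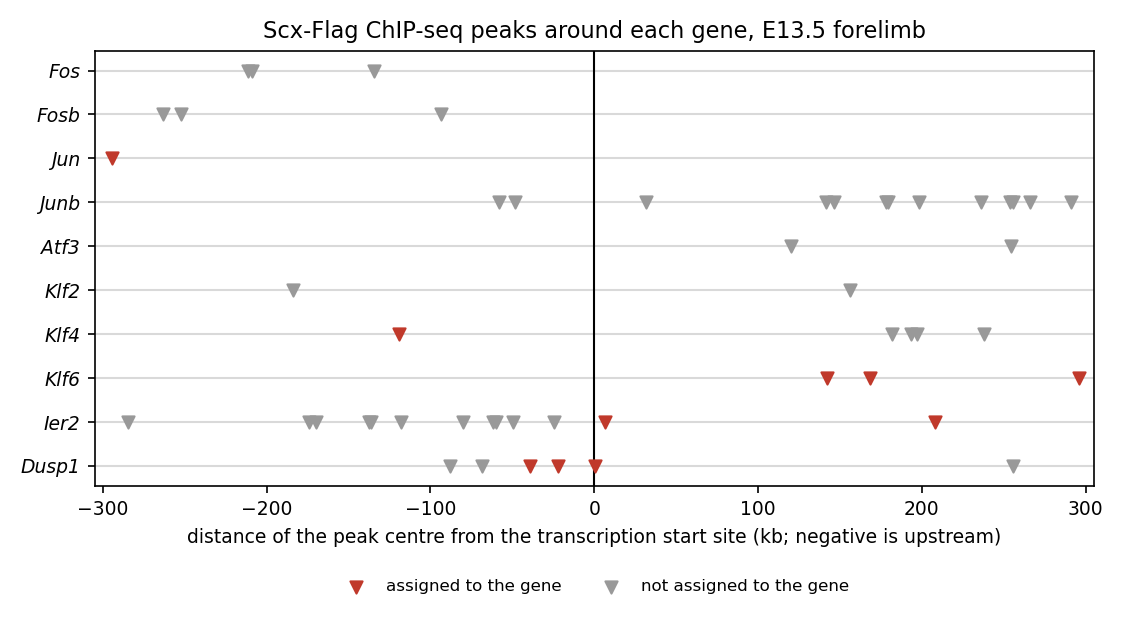
Distance in kb of each Scx-Flag ChIP-seq peak centre from the start site of each gene, up to 300 kb on either side and negative upstream, with peaks assigned to the gene in red and others in grey. *Dusp1* has red peaks at and upstream of its start, *Ier2* has 1 just downstream, and *Fos*, *Fosb*, *Junb*, *Atf3* and *Klf2* have grey peaks only.

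The 4 assigned peaks within 100 kb of a start belonged to *Dusp1* and *Ier2*, and are printed on the plus strand with the Scx core in capitals. The core is the E-box CAGATG, which reads CATCTG on the other strand. The palindrome CAGCTG counts as a core too, and so does the palindrome CATATG. The peak at the *Dusp1* start is shown without 47 bases that are UTR in an annotated transcript.
*Dusp1*, centre 260 bases downstream, chr17:26508159-26508311: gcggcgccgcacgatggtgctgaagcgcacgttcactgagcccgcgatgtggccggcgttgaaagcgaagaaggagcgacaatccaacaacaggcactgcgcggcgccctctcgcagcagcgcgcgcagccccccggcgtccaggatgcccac
*Dusp1*, centre 22370 bases upstream, chr17:26530789-26530988: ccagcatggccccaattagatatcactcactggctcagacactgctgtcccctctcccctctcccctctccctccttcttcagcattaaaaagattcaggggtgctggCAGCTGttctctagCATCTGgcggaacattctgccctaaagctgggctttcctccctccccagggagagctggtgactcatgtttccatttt
*Dusp1*, centre 39418 bases upstream, chr17:26547837-26548036: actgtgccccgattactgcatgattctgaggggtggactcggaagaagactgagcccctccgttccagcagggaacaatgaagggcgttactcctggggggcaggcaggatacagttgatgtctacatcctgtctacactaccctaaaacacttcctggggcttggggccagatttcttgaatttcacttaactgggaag
*Ier2*, centre 6557 bases downstream, chr8:84656195-84656394: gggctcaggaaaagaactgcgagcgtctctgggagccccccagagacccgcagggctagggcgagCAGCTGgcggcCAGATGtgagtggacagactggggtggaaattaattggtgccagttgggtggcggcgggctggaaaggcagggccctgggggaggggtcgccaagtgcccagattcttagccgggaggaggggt

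The peak at the *Dusp1* start was centred in exon 1, its 153 printed bases are coding sequence, and they held no Scx core. With 69.5% GC over 200 bp it was richer than the median peak at 49.5%. The peak 22370 bases upstream, in an intron of a longer *Dusp1* transcript, held CAGCTG and CATCTG, with 1 match each to the Nfat site TGGAAA and the AP-1 site TGANTCA on either strand. The peak 39418 bases upstream, also intronic in a longer transcript, held no core. Both upstream peaks were also assigned to *Ergic1*, a gene of the early secretory pathway. The peak 39418 bases upstream of *Dusp1* lay 13552 bases from the *Ergic1* start, and the other lay 30600 bases from it. *Ergic1* had 43.3 FPKM in *Scx*-/- cells and 43.1 FPKM in control cells, a log2 ratio of 0.01 beside -0.23 for *Dusp1*. Which of these genes a shared peak acts on was not tested.

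The near *Ier2* peak was intergenic, 4937 bases past the end of the transcript, and held CAGCTG and CAGATG a few bases apart, with 2 matches to TGGAAA. It and the other *Ier2* peak, 208088 bases downstream in an intron of *Cacna1a*, were also assigned to *Cacna1a*. They lay 240931 and 39400 bases from the *Cacna1a* start. *Cacna1a*, a calcium channel gene, was at 0.328 FPKM in *Scx*-/- cells and 0.357 FPKM in control cells. The remaining peaks were distant. Those of *Jun* lay 294695 and 424291 bases upstream and were shared with *Fggy*, from whose start they lay 210590 and 80994 bases. *Fggy* was at 0.891 FPKM in *Scx*-/- cells and 0.764 FPKM in control cells. The *Klf4* peak was 119038 bases upstream, intergenic, and assigned to no other gene.

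The 6 peaks of *Klf6* lay between 620736 bases upstream and 631635 bases downstream, the nearest at 141816 bases downstream. The 2 upstream peaks were shared with *Akr1e1*, at 17.1 FPKM in *Scx*-/- cells and 16.7 FPKM in control cells. The 4 downstream peaks were shared with *Pitrm1*, a mitochondrial peptidase gene at 30.9 FPKM in *Scx*-/- cells and 32.6 FPKM in control cells. *Klf6* had the most peaks of the 10 genes and also the longest domain, at 1681.7 kb, with no peak within 100 kb of its start. Its most distant downstream peak lay 55034 bases from the *Pitrm1* start.

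Of the 14 peaks assigned to the 10 genes, 9 held the Scx core, against 60.3% of all peaks. The Nfat site TGGAAA was in 5 of the 14, against 31.5% of all peaks, and TGANTCA in 3 of the 14, against 4.98%. These shares rest on 14 peaks, and 6 of those belong to *Klf6*. Peaks without the core were the *Dusp1* peaks at the start and 39418 bases upstream, the *Klf4* peak, the distant *Ier2* peak and the most distant *Klf6* peak.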

How the data were processed

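For RNA-seq, the authors' methods describe STAR alignment to mm10, featureCounts with genes of chromosome Y left out, RUVs to adjust for sex, and DESeq2. The authors deposited a table with the mean FPKM of each group, used here, and columns of their own comparison (a log2 fold change, p-value, FDR and status), not used here. Whether RUVs entered the FPKM, and the annotation used for counting, are not given in the sources used here. Values of single samples were not used, so the depth and the spread between embryos are unknown. There were 0 columns of other samples. In 21 rows a gene symbol had become a date.

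For ChIP-seq, the authors' deposited list gives peak positions with no enrichment per peak. Their methods and the submitters' processing notes give STAR 2.7.4, HOMER 4.11 peak calling per ChIP sample against input, merging over replicates and an edgeR test with an FDR threshold of 0.01.

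Ratios were computed with Python 3.11.15, numpy 2.4.6 and pandas 2.3.3, with 1 FPKM added to each mean, over genes whose 2 means averaged 1 FPKM or more. Start sites came from GENCODE M21 (principal transcript), start regions from RefSeq, and peak sequences from GRCm38.p6, whose coordinates are those of mm10. The motif search, peak assignment and ratio were tested on simulated data. The members and lists were chosen with earlier results of these data known. Genes named were the 10 genes, of each list of related genes the 2 of highest mean and up to 4 past 1.5-fold (none passed with a mean of at least 5 FPKM), the 2 genes nearest in level to *Klf2* and *Klf6*, and neighbours sharing a peak. One of the genes so named is not reported here. Peaks named in full were those within 100 kb of a start. *Batf*, *Cyr61*, *Klf14*, *Dusp14*, *Xist*, the neighbours at unassigned peaks and the distant peaks were added to the rule's choice with their values in view. Alternatives were another added value, other fold thresholds, rescaled means, other filters, and other rules of peak assignment and motif window.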

Additional observations from a re-analysis of the deposited data

How the results depend on the processing

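The median log2 ratio of the 10 genes was -0.35 with 0.1 FPKM added, against -0.27 with 1 FPKM, and *Junb* joined *Klf2* past 1.5-fold lower, which made 2 genes. With a threshold of 20% lower 4 genes passed, or 6 when 0.1 FPKM was added, tried after seeing the data, and with 2-fold 0 (0.0907% of expressed genes). Rescaling *Scx*-/- means to a median log2 ratio of 0 kept the median at -0.27 and 9 of 10 genes lower. The share of all genes at least 1.5-fold lower stayed between 0.211% and 0.223% with no filter or a minimum of 10 FPKM. With extensions of at most 100 kb, 2 of the 10 genes had a peak, *Ier2* and *Dusp1* (41.0% of expressed genes), and within 5 kb 1 had, *Dusp1*. By the single nearest start 4 had a peak (38.2% of expressed genes), and 5 with the start at the outer end of the gene (47.1%), a setting chosen after seeing the data. The Scx core was in 7 of 14 peaks within the central 100 bp (47.4% of all peaks) and in 9 with overlapping peaks counted once. No embryo could be left out. No paired analysis was possible because the table used gives group means only. The depth is unknown, and at *Atf3*, *Junb* and *Fosb*, under 2.3 FPKM, the added 1 FPKM is of the order of the level.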
